A study of Macaca fascicularis with 6 samples.

Results

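The cells described here were cynomolgus monkey induced pluripotent stem cells (cyiPSCs), compared between cells in which no NANOG read was counted and cells with at least 4 NANOG reads. The members were 1394 cells, 684 with a NANOG count of 0 and 710 with a count of at least 4. They were taken from 1844 cyiPSCs with at least 100000 reads, out of 2500 cyiPSCs and 6027 cells in the matrix. The other 450 cells of this depth held 1 to 3 NANOG reads and are given as a middle group, and 656 cyiPSCs below 100000 reads were left out. Because the members were chosen by their NANOG counts, every gene difference between them is a description, without a test.

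The study made cartilage organoids (cyiPS-Cart) from a cyiPSC line and transplanted them into knee cartilage defects of monkeys. The cyiPSCs and the pre-transplant cyiPS-Cart cells were tagged with oligonucleotide hashtags, pooled, and sequenced as 1 single-cell library by TAS-Seq, an amplification method for cDNA captured on BD Rhapsody beads. All cells of both groups came from this line, which carries an EGFP reporter driven by the constitutive CAG promoter at the AAVS1 locus and is homozygous for an MHC haplotype. The line was maintained on mouse embryonic fibroblast feeders treated with mitomycin C and moved to feeder-free culture before differentiation. Which of these cultures gave the sequenced cyiPSCs is not given in the sources used here. Both groups were therefore cells of 1 culture sample in 1 library, so cells are not replicates, and no p-value or error across samples can be given. Intervals below are exact 95% intervals, Clopper-Pearson for shares of cells and Poisson for sums of reads. They cover no more than counting error. No counting of molecules is described, so the Poisson intervals take every read as a separate count. They are too narrow where reads repeat a molecule, and they leave out the spread between cells.

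NANOG is a homeodomain transcription factor of the pluripotency network, where it acts with OCT4 (the product of POU5F1) and SOX2. Its level is known to vary from cell to cell in pluripotent cultures. Primate pluripotent cells of the primed state are sustained by FGF signaling through ERK and by activin or NODAL signaling. BMP signaling, read out by the ID genes, can lead primate pluripotent cells towards extraembryonic fates such as amnion and trophoblast, and takes part in forming the border of the neural plate. TFAP2A, GATA2, GATA3, HAND1, DLX5 and MSX2 are transcription factor genes used in several of these fates, so none of them alone names a cell type.

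The label of the cells was first set beside marker genes. Over the 1844 cells, LIN28A, an RNA-binding repressor of let-7 maturation, had a mean of 22.2 CPM (reads of the gene per 1000000 reads of the cell) and reads in 67.7% of cells (65.5 to 69.8). SOX2 averaged 283 CPM with reads in 99.5% of cells, and DNMT3B, the de novo DNA methyltransferase of primed cells, averaged 1683 CPM with reads in 99.7%. Reads of the EGFP transgene were present in 100% of cells at a mean of 1203 CPM. TBXT, which marks the primitive streak, had reads in 0.488% of the cells, and the cartilage proteoglycan gene ACAN in 2.87%. The markers thus went with the label, with POU5F1 not analysed here.

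NANOG itself averaged 20.3 CPM. It had at least 1 read in 62.9% of the 1844 cyiPSCs (60.7 to 65.1, median depth 178424 reads), against 3.36% of 654 pre-transplant cyiPS-Cart cells of at least 100000 reads (2.12 to 5.05, median depth 122890). At least 4 reads, the limit of the upper group, were found in 0.153% of those organoid cells. The cyiPSC share was thus far above the level in differentiated cells of the same library. Within the cyiPSCs, 37.1% of cells had a count of 0 (34.9 to 39.3), 24.4% had 1 to 3 reads and 38.5% had at least 4 (36.3 to 40.8).

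**Figure D1:**
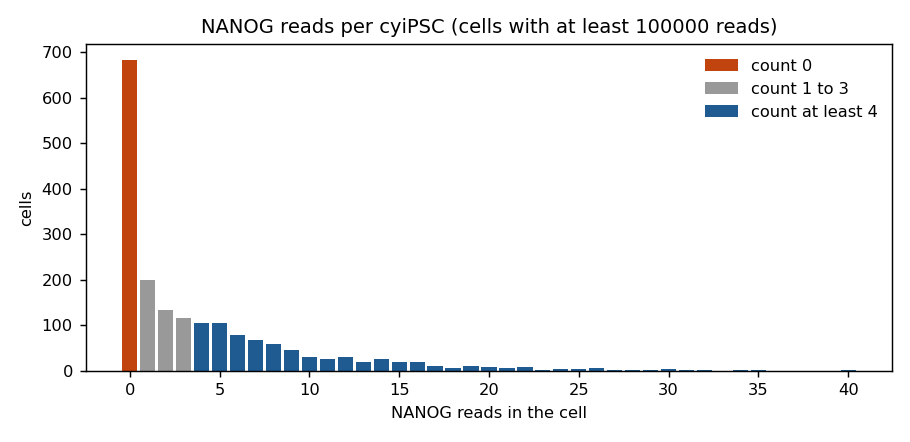
Number of cyiPSCs (y axis) by NANOG reads in the cell (x axis), for the 1844 cells with at least 100000 reads, coloured by group. Counts run from 0, the highest bar with 684 cells, through 199 cells with 1 read and 104 cells with 4 reads, to a highest count of 40, with no gap between the groups.

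The counts formed no separate classes. Just below the limit were 117 cells with 3 NANOG reads at a mean of 17.7 CPM, and just inside it 104 cells with 4 reads at 22.8 CPM. The median of the upper group was 7 reads. A count of 0 in 1 cell leaves room for NANOG transcripts: the level that 3 reads would give ranged from 6.09 to 30 CPM over the cells of this group, with a median of 19.4 CPM. Pooled over the group, a count of 0 allowed at most 0.025 CPM, which follows from the choice of the cells.

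Depth moved with the group. Cells with a NANOG count of 0 had a median of 154666 reads and 6712 genes, and cells of the upper group 206241 reads and 7208 genes. Among all cyiPSCs, the share with a count of 0 was 83.8% below 50000 reads, 49.5% between 100000 and 150000 reads and 22% at 250000 reads or more. When each cell was thinned at random to 100000 reads, 836 cells had a count of 0 (45.3%, 43 to 47.6) and 409 at least 4 (22.2%, 20.3 to 24.1). The size of the NANOG-0 group thus moved with depth, and the thinned group held cells that had NANOG reads before thinning. Shares of cells given below as after thinning are over these groups of 836 and 409 cells, formed again from the thinned counts. The mitochondrial share was close between the groups, with medians of 7.96% and 7.65% of reads.

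Across the transcriptome the groups were nearly alike. Of 4029 genes with a mean of at least 50 CPM in either group, 3979 (98.8%) lay within 1.25-fold of each other, and the median log2 ratio of cells with NANOG count 0 over cells with at least 4 was 0.0012. Of all 4029 genes, 2039 had a positive and 1990 a negative ratio, the background for the counts by sign given below for lists. Ratios are of mean CPM with a pseudocount of 1. Genes at least 2-fold higher in cells without NANOG reads numbered 4 (0.0993% of those compared), and 0 genes (0%) were at least 2-fold lower. The 4 genes were TFAP2A, BMP4, ID2 and BAMBI, of which only ID2 reached 50 CPM in both groups. At 1.25-fold, a limit set after the data were seen, 22 genes (0.546%) were higher and 28 (0.695%) lower.

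**Figure D2:**
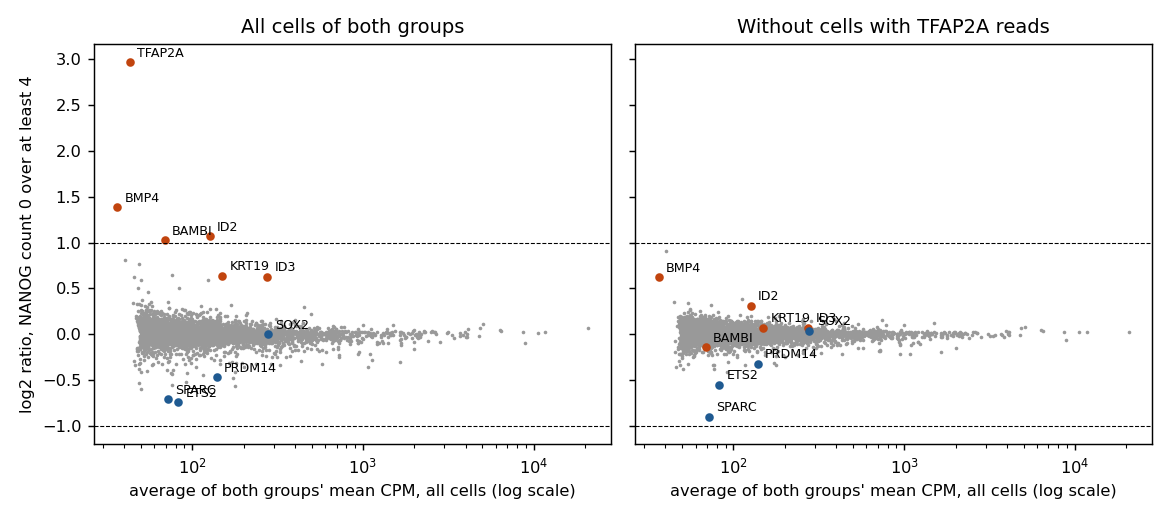
Each point is 1 of the 4029 genes, with the average of both groups' mean CPM over all cells on the x axis (log scale) and the log2 ratio of NANOG count 0 over at least 4 on the y axis, for all cells (left) and without cells that hold TFAP2A reads (right, where TFAP2A is not drawn). Dashed lines mark 2-fold. TFAP2A at 2.97, BMP4 at 1.39, ID2 at 1.07 and BAMBI at 1.03 stand above the upper line on the left, and none of the genes lies beyond a line on the right.

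Most pluripotency genes past the filter were at like levels in both groups. Of 42 genes listed for pluripotency, 34 were in the matrix and 19 passed 50 CPM, of which 9 had a positive and 10 a negative ratio, with a median of -0.06. None was 2-fold apart, and 1 was 1.25-fold lower in cells without NANOG reads. SOX2, the partner of OCT4, averaged 279 CPM in both groups, with a median over cells of 258 CPM against 263. DNMT3B averaged 1600 CPM in cells without NANOG reads, 1724 in the middle group and 1736 in the upper group (log2 ratio -0.12). The telomere protein gene TERF1 averaged 1921 against 2034 CPM (-0.08), and L1TD1, an RNA-binding protein gene of pluripotent cells, 308 against 344 CPM (-0.16). Single cells of both groups spanned wide and overlapping ranges, for DNMT3B up to 6063 and 4559 CPM.

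The lowest ratio among those past the filter was that of PRDM14, a transcriptional repressor that restrains differentiation and takes part in germ cell specification. It averaged 117 CPM in cells with a NANOG count of 0, 144 CPM with 1 to 3 reads and 161 CPM with at least 4 (log2 ratio -0.47), and the medians over cells were 77.4 and 128 CPM. At the other end of the list, OTX2, a homeobox gene of the primed epiblast and the forebrain, averaged 170 against 148 CPM (0.20). Other members lay between these, among them SALL4 at 0.09, CD9 at -0.13 and POLR3G at -0.17. Reads of the EGFP transgene differed little, with 1171 CPM without and 1234 CPM with NANOG reads (-0.08).

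LIN28A, the second marker of these cells, did not follow NANOG. Its mean was 22.9 CPM in cells with a NANOG count of 0, 22.6 CPM in the middle group and 21.4 CPM in the upper group (log2 ratio 0.09). It had reads in 65.1% and 68.7% of the cells, and after thinning in 59.8% and 54.3%. TDGF1, the NODAL co-receptor gene, lay below the filter at 31.8 against 38.1 CPM, with reads in 62.1% and 78% of cells, and 59.3% and 71.4% after thinning. DPPA4, a chromatin-associated gene of pluripotent cells, was lower still, at 3.39 against 5.56 CPM (-0.58), with reads in 19.6% and 31.7% of cells, and 14.8% and 24% after thinning.

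The BMP list held 3 of the 4 genes that were 2-fold higher without NANOG reads. Of 19 genes listed for BMP signaling, 9 passed the filter, with a positive ratio in each and a median of 0.63, and 3 of them were at least 2-fold and 5 at least 1.25-fold higher. BMP4, BMP7 and BAMBI passed only through the group without NANOG reads, which fixed their sign, so the count and the median describe the genes that passed and not the list. BMP4, a secreted ligand, averaged 53.3 CPM in cells without NANOG reads, 29.6 CPM in the middle group and 19.7 CPM in the upper group (log2 ratio 1.39). Summed over cells, its level was 52.8 CPM (51.5 to 54.1) against 20 CPM (19.3 to 20.7). The difference was seen at the median and above. The median cell had 7.67 against 0 CPM and the upper quartile was 58.1 against 24.8 CPM. Reads were present in 54.7% and 48.2% of cells (50.5% and 37.7% after thinning). Among cells without TFAP2A reads the shares were 46.3% and 46.6%, so that both medians there were 0 CPM.

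ID2, an inhibitor of basic helix-loop-helix factors and a target of BMP signaling, averaged 172, 108 and 81.5 CPM in the order of rising NANOG reads (log2 ratio 1.07). Its cell medians were 63.9 CPM without and 36.7 CPM with NANOG reads. BAMBI, a membrane pseudoreceptor that dampens BMP and TGF-β signaling and is induced by BMP, averaged 92.9, 53.7 and 44.9 CPM (1.03). Here the cell medians were level at 28.2 and 28.6 CPM, so that the difference in means came from cells of high level, up to 1744 CPM. ID3 averaged 334 against 215 CPM (0.63), the ligand gene BMP7 55.4 against 35.4 CPM (0.63) and ID1 501 against 408 CPM (0.30). The receptor gene BMPR1A (138 against 123 CPM, 0.16) and the signal transducer gene SMAD5 (114 against 109 CPM, 0.07) differed least.

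TFAP2A had the largest ratio, with 77.6 CPM in cells without NANOG reads, 19.2 CPM in the middle group and 9.01 CPM in the upper group (log2 ratio 2.97). It was read in few cells. Reads were present in 17.3% of cells with a NANOG count of 0 (14.5 to 20.3), 6.44% with 1 to 3 reads and 3.94% with at least 4 (2.64 to 5.65). After thinning and forming the groups again, the shares were 16% of 836 cells and 3.18% of 409 cells. In organoid cells of at least 100000 reads the share was 1.22%.

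Among the other genes higher without NANOG reads were KRT19, a simple-epithelial keratin gene (183 against 117 CPM, 0.64), PERP, a desmosome component gene (92.7 against 58.6 CPM, 0.65), and GSTO1, a glutathione transferase gene (61.9 against 35.8 CPM, 0.77). SLC9A3R1, which encodes a membrane scaffold protein, had 149 against 98.3 CPM (0.59). NNT, the mitochondrial transhydrogenase gene, had 60.8 against 40 CPM (0.59), FGFR3, an FGF receptor gene, 98 against 68.3 CPM (0.51), and TMEM47 56.9 against 39.8 CPM (0.50). GSTO1, NNT and TMEM47 passed the filter only through the group without NANOG reads, which fixed their sign.

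Of the 28 genes at least 1.25-fold lower without NANOG reads (0.695% of those compared), 1 was in the FGF and ERK list and 3 in the immediate early list. Of 21 FGF and ERK genes, 9 passed the filter, 7 with a negative ratio (beside 1990 of all 4029 genes), and the median was -0.23. DUSP6, a phosphatase that inactivates ERK and is induced by it, averaged 64.2 CPM in cells without NANOG reads, 65.3 CPM in the middle group and 86.3 CPM in the upper group (log2 ratio -0.42). ETV4, an ETS factor gene downstream of FGF, averaged 154, 179 and 190 CPM (-0.30), whereas the ligand gene FGF2 had 51.6 against 55.7 CPM (-0.11). FGFR3 (0.51) was the one member at least 1.25-fold higher. Of 22 immediate early genes, 6 passed, with a median of -0.32, and JUN (43.5 against 54.6 CPM), CCN1 (941 against 1209 CPM) and CCN2 (42.8 against 57.4 CPM) were at least 1.25-fold lower. JUN and CCN2, and DUSP5 among the 7 FGF and ERK genes, passed only through the upper group, which fixed their sign.

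ETS2, a transcription factor gene whose product is phosphorylated by ERK, had the lowest ratio of all 4029 genes. It averaged 61.6 CPM without NANOG reads, 80.3 CPM in the middle group and 104 CPM in the upper group (-0.74), with cell medians of 20.4 and 67.6 CPM. Its reads were present in 68.1% and 84.4% of the cells, and in 65.9% and 80.2% after thinning. PDGFB, a growth factor gene, had 39.9 against 61 CPM (-0.60). RGS16, a regulator of G protein signaling, had 143 against 211 CPM (-0.56) and PHLDA2, an imprinted gene that limits placental growth, 62 against 91.3 CPM (-0.55). The other named genes were ITM2A (-0.53), NFE2L3 (-0.52), PHLDA1 (-0.48), IL13RA1 (-0.44), the metalloproteinase inhibitor TIMP3 (-0.43) and the glycogen primer gene GYG1 (-0.42). PDGFB and ITM2A passed the filter only through the upper group, which fixed their sign.

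**Figure D3:**
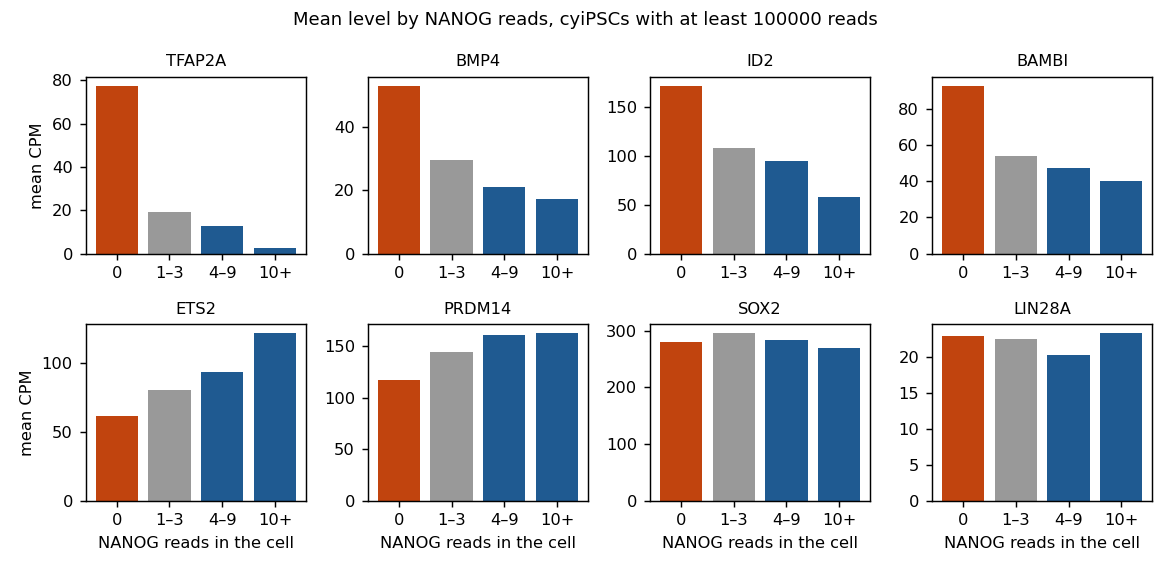
Mean CPM (y axis, from 0, a scale for each gene) of 8 genes in cyiPSCs with 0, 1 to 3, 4 to 9 and 10 or more NANOG reads (x axis; 684, 450, 460 and 250 cells). TFAP2A, BMP4, ID2 and BAMBI are lower in each successive bin, ETS2 and PRDM14 are higher, and SOX2 (279 to 296 and 270 CPM) and LIN28A show no such order.

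Some genes also differed within the upper group. From 4 to 9 to 10 or more NANOG reads, TFAP2A went from 12.5 to 2.51 CPM, ID2 from 94.5 to 57.5 CPM, BMP4 from 21 to 17.4 CPM and ETS2 from 93.3 to 122 CPM. Others named above were nearly level or went the other way, with GSTO1 from 34.9 to 37.6 CPM, PERP from 58.5 to 58.9 CPM and PRDM14 from 161 to 163 CPM. The share of cells with TFAP2A reads was 4.78% and 2.4% in these bins (intervals 3.02 to 7.15 and 0.886 to 5.15), which overlap. Median depth also went up over the bins, from 154666 reads at a NANOG count of 0 to 233897 reads at 10 or more.

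Cell cycle and housekeeping lists had medians near 0, though several leaned to 1 sign. Of 42 S-phase genes, 31 passed with a median log2 ratio of 0.09, 26 with a positive and 5 with a negative ratio, and of 53 G2/M genes 45 passed, 22 with a positive and 23 with a negative ratio. The replication clamp gene PCNA had 555 against 524 CPM (0.08) and the proliferation marker MKI67 242 against 236 CPM (0.04). The median was -0.05 for 12 glycolysis genes (10 negative), -0.04 for 26 nuclear genes of oxidative phosphorylation (22 negative), 0.02 for 12 genes of the mitochondrial genome, -0.02 for 5 p53 targets and 0.03 for 19 genes of DNA methylation and chromatin. None of the genes of these lists past the filter differed by 1.25-fold.

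Lists of other cell types were mostly unfilled. None of the genes listed for primitive streak, cartilage, primordial germ cells, or endothelium and blood reached 50 CPM, and the summed level of the 11 primitive streak genes in the matrix was 25.8 CPM without and 22.2 CPM with NANOG reads. For amnion and trophoblast, 20 of 26 genes were in the matrix, and their summed level was 536 CPM against 255 CPM, with TFAP2A and KRT19 past the filter. Other lists had a like ratio of sums. The neural crest genes had 143 against 71.5 CPM, and most of that difference was TFAP2A alone (77.6 against 9.01 CPM). TFAP2A was also the only neural crest gene past the filter. The primordial germ cell genes, led by TFAP2C and KIT, had 86.6 against 37.3 CPM. Below the filter, HAND1 averaged 34.3 CPM in cells with a NANOG count of 0, 3.38 CPM in the middle group and 0.184 CPM in the upper group, and was read in 7.31% and 1.13% of cells (6.34% and 0.733% after thinning). GATA3 averaged 37.4, 8.17 and 2.48 CPM, and was read in 17% and 5.63% of cells (14.2% and 3.42% after thinning). GATA2 had 19.7 against 3.9 CPM, ISL1 6.6 against 0.577 CPM, MSX2 15.4 against 1.15 CPM, DLX5 15 against 1.41 CPM and TFAP2C 44.6 against 19.3 CPM. All of these were higher without NANOG reads, and all had no reads in most cells of either group.

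NODAL-side genes were few. Of 21 genes listed for NODAL and activin signaling, 6 passed the filter, with a median of 0.06 and none 1.25-fold apart. Among the FGF genes below it, the ligand gene FGF8 had 5.91 against 10.4 CPM and was read in 14.8% and 28.6% of cells (12.9% and 24.9% after thinning).

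The cells were then split by TFAP2A reads. This split was chosen after the ratios were seen, so its values are descriptions too. TFAP2A was read in 175 of the 1844 cyiPSCs (9.49%, 8.19 to 10.9), at 5 to 439 reads with a median of 58, and 30 of these cells had under 10. Background subtraction by the authors set low counts of strongly expressed genes to 0, and no cell held 1 to 4 TFAP2A reads. Of the 175 cells, 118 had a NANOG count of 0 (67.4%, 59.9 to 74.3), 29 had 1 to 3 reads and 28 had at least 4 (16%). Of the 1669 cells without TFAP2A reads, 566 had a NANOG count of 0 (33.9%, 31.6 to 36.2) and 682 at least 4 (40.9%). Depth was close between these sets, at medians of 185066 and 177888 reads, and after thinning the NANOG-0 shares were 76.6% and 42.1%. For LIN28A the order was the opposite, with a count of 0 in 21.7% of cells with TFAP2A reads (15.8 to 28.6) and 33.4% of cells without (31.2 to 35.8).

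Without the cells that held TFAP2A reads, 566 cells with a NANOG count of 0 were set against 682 with at least 4. Of 3995 genes, 0 (0%) were 2-fold higher and 0 (0%) 2-fold lower, and at 1.25-fold 4 (0.1%) were higher and 13 (0.325%) lower. BMP4, now below the filter, had a log2 ratio of 0.62 (25.9 against 16.5 CPM) and ID2 0.31 (88.3 against 71.2 CPM). BAMBI turned to -0.14 (37.6 against 41.7 CPM), GSTO1 to -0.08 and BMP7 to -0.07, while SLC9A3R1 was at 0.04 and KRT19 at 0.07, and the median of the BMP list, over 6 genes, was 0.04. On the lower side ETS2 was at -0.55 (72 against 106 CPM), NFE2L3 at -0.41, PDGFB at -0.38, PRDM14 at -0.32 (131 against 165 CPM) and DUSP6 at -0.23. The median of the immediate early list moved from -0.32 to -0.16 and that of the FGF and ERK list from -0.23 to -0.16.

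Reads of the higher genes were spread unequally over the NANOG-0 cells. The 118 cells with TFAP2A reads, 17.3% of that group, held 99.2% of its HAND1 reads, 96.7% of its DLX5 reads and 92.8% of its GATA3 reads. They also held 67.1% of its BAMBI reads, 59.9% of its BMP4 reads, 57.9% of its ID2 reads, 54.2% of its BMP7 reads and 53% of its ID3 reads. Of KRT19 and FGFR3 they held 45.8% and 40.6%, so that most reads of these genes lay in the other 566 cells. Pluripotency genes lay on both sides of the 17.3% share of cells. Examples below it were ETV4 (6.52%), PRDM14 (7.52%), DNMT3B (9.46%) and SOX2 (15%). Examples above it were OTX2 (21.3%), LIN28A (22.4%), SALL4 (22.4%), CDH1 (24.2%), MYCN (25.7%) and SALL1 (25.7%).

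Set against the 1669 other cells, the 175 cells with TFAP2A reads differed in many genes. Of 4250 genes, 69 (1.62%) were at least 2-fold higher and 55 (1.29%) at least 2-fold lower. HAND1, a factor of amnion, trophoblast and lateral mesoderm, averaged 142 against 0.13 CPM, and GATA3 162 against 1.59 CPM. DLX5 had 64.4 against 0.579 CPM, DLX6, its neighbour gene, 59.2 against 0.0733 CPM, MSX2 68.2 against 0.591 CPM and GATA2 84.8 against 3.22 CPM. WLS, needed for WNT secretion, had 116 against 5.54 CPM, and the endothelin receptor gene EDNRB 63.7 against 1.34 CPM. Of the BMP list, 11 genes passed here and 7 were at least 2-fold higher, among them ID2 (511 against 80.7 CPM), ID3 (982 against 187 CPM) and BMP4 (163 against 21.1 CPM). BMP4, BMP7, BAMBI and MSX2, 4 of these 7, passed 50 CPM only in the cells with TFAP2A reads, which fixed their direction. The same held for HAND1, GATA3, DLX5, DLX6, GATA2, WLS and EDNRB.

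Lower in the cells with TFAP2A reads were PDGFB (7.02 against 54.2 CPM), DUSP6 (17.5 against 78.8 CPM), PHLDA2 (18.5 against 84.6 CPM), ETS2 (22.1 against 88.6 CPM) and MYC (43.3 against 155 CPM). These include genes named above as lower without NANOG reads. All of those named here passed 50 CPM only in the cells without TFAP2A reads, which fixed their direction. Of 19 pluripotency genes, 2 were at least 2-fold lower, one of them PRDM14 at 54.4 against 150 CPM. DNMT3B averaged 1008 against 1753 CPM and L1TD1 173 against 342 CPM. SOX2, at 252 against 286 CPM with reads in 96.6% of the cells, and LIN28A, at 27.7 against 21.7 CPM, were still present.

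**Figure D4:**
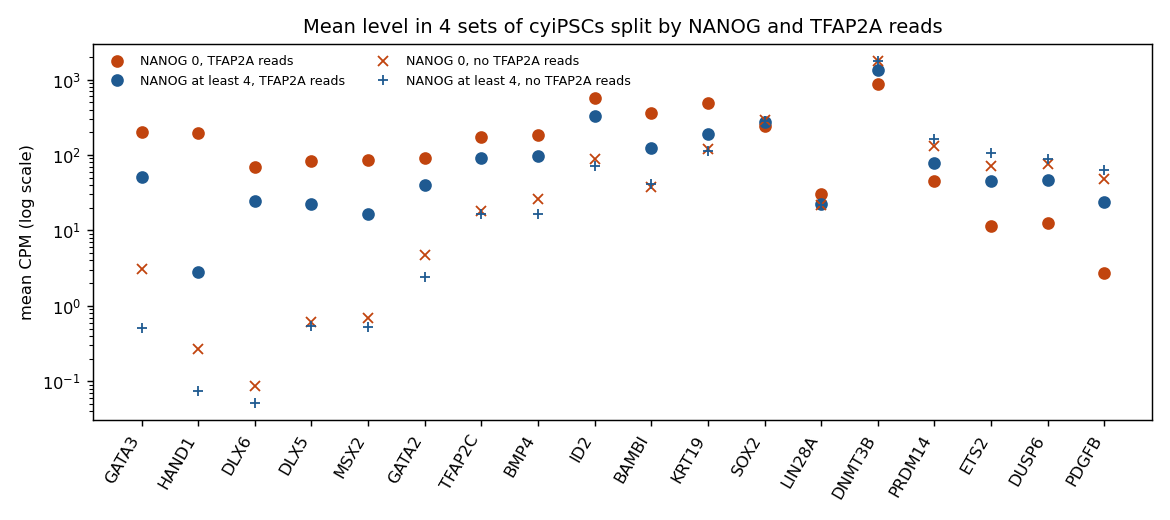
Mean CPM (y axis, log scale) of 18 genes (x axis) in 4 sets of cyiPSCs: NANOG count 0 (orange) or at least 4 (blue), with TFAP2A reads (filled circles, 118 and 28 cells) or without (crosses, 566 and 682 cells). From GATA3 to KRT19 both sets with TFAP2A reads lie above both sets without, SOX2 and LIN28A are close in all 4, and from PRDM14 to PDGFB the cells with TFAP2A reads lie lower.

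For several genes, the few cells with TFAP2A reads and at least 4 NANOG reads lay in between. GATA3 averaged 202 CPM in the 118 cells without NANOG reads, 50.6 CPM in the 28 cells with at least 4, and 3.08 and 0.507 CPM in the cells without TFAP2A reads. HAND1 averaged 197 and 2.83 CPM in the first pair and 0.27 and 0.0749 CPM in the second. BMP4 averaged 185 and 98.3 CPM, then 25.9 and 16.5 CPM. In the other direction, PRDM14 averaged 45.8 and 77.3 CPM, then 131 and 165 CPM, and ETS2 11.6 and 45.6 CPM, then 72 and 106 CPM. Other genes were highest in the 28 cells: OTX2 averaged 211 and 307 CPM, then 162 and 142 CPM, and SALL4 154 and 173 CPM, then 113 and 110 CPM. Median depth was 165231 reads in the 118 cells and 236505 reads in the 28.

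The 175 cells were not uniform. GATA3 and HAND1 were both read in 49 of them, GATA3 alone in 61, HAND1 alone in 5 and neither in 60. GATA3 and DLX5 were both read in 85, and DLX5 and DLX6 in 81. SIX3, a homeobox gene of the anterior neural plate, was read in 67 cells, 16 of them with HAND1. With genes of the amnion and of the neural border side by side, the set is called here by its rule and given no cell type name.

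Clustering of the 1844 cells, done without NANOG and LIN28A, gave 6 clusters, numbered 0 to 5. Cluster 4 (94 cells) was led by HAND1, GATA3, DLX6, TFAP2A, MSX2 and DLX5, and 92 of its cells had TFAP2A reads. Of its cells, 83% had a NANOG count of 0 (73.8 to 89.9), 87.2% after thinning, and 5.32% had at least 4 reads. Its 78 NANOG-0 cells were 11.4% of all cells with a count of 0. In the 4 largest clusters the NANOG-0 share was 34.4% in cluster 0 (led by SPP1 and PDGFB), 39.2% in cluster 1 (TOB1 and DTL), 40.4% in cluster 2 (the mitotic genes PIF1, PSRC1 and AURKA) and 22.7% in cluster 3 (DDIT3, ACTA2 and JUN). After thinning these shares were 41.9%, 48.6%, 47.6% and 33.2%, with cluster 3 still lowest. Most NANOG-0 cells thus lay among the other cyiPSCs and not in cluster 4.

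**Figure D5:**
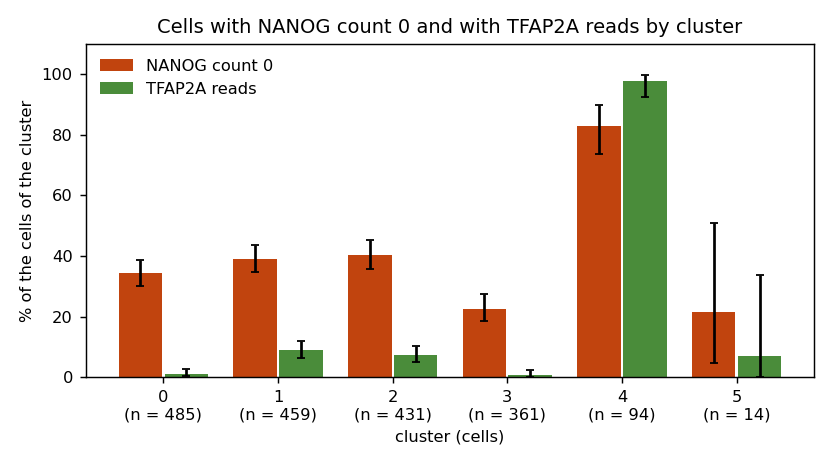
Share of cells (y axis, %) with a NANOG count of 0 (orange) and with TFAP2A reads (green) in each of the 6 clusters (x axis, cell numbers below), with exact 95% binomial intervals as bars. In cluster 4 the shares are 83% and 97.9%. In clusters 0 to 3 NANOG-0 shares lie between 22.7% and 40.4% and TFAP2A shares between 0.831% and 8.93%.

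Within each of clusters 0 to 3 no gene was 2-fold higher in cells without NANOG reads, and 1 was 2-fold lower, ETS2 in cluster 2 at a log2 ratio of -1.02. ETS2 was at -0.07, -0.74 and -0.50 in clusters 0, 1 and 3. PRDM14 was at -0.51, -0.32, -0.40 and -0.36 in clusters 0 to 3, so that its lower level without NANOG reads was seen in all 4. BMP4 was at -0.05, 0.41, 0.81 and 0.20. Cluster 5 (14 cells) was led by COL2A1, COL3A1 and SPARC. Scrublet marked 11 of the 14 as doublets, but it marked too few cells of the library for its calls to be relied on.

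Collagen genes rested on a handful of cells. COL3A1 had 51.9 against 29.2 CPM (log2 ratio 0.81) from 5 cells without and 10 with NANOG reads, none with under 95 reads of the gene. SPARC had 54.5 against 89.8 CPM (-0.71) from 4 and 18 cells, none with under 320 reads. Of the 27 cyiPSCs with SPARC reads, 14 were the cells of cluster 5. Both ratios changed sign between settings, with SPARC at 0.77 without cells marked by scrublet and COL3A1 at -0.84 in cells of at least 150000 reads. The source of these reads was not tested.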

How the data were processed

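Read counts per gene and cell were used as the authors deposited them, in a matrix of 13950 genes and 6027 cells. The authors trimmed reads (cutadapt 3.4 in the submitters' processing notes), assigned them to Ensembl cynomolgus transcripts with Bowtie2 2.4.2, kept cells above the inflection of the knee plot, and separated samples by hashtag. In R 3.6.3 they also zeroed low counts of strongly expressed genes as background, possibly from RNA that diffused at lysis and reverse transcription. No counting of molecular identifiers is described, so counts were taken as reads. Cells were assigned to cyiPSC by the prefix of their names. The matrix without cyiPSCs was not used. No sequences or coordinates were used.

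Counts were divided by the cell's total and multiplied by 1000000 (CPM), averaged per group, and compared as log2 ratios with a pseudocount of 1 for genes with at least 50 CPM in either group. The genes named were the 12 highest and 12 lowest ratios among genes read in at least 25% of cells of either group, the 5 highest and 5 lowest without that share, and members of 31 gene lists; examples within lists, the cluster leaders and the genes of cells with TFAP2A reads were picked with their values in view. Members and lists were chosen with earlier results of these data known. Thinning drew 100000 reads per cell. Clusters used Seurat 5.3.0 (2000 features, 30 principal components, resolution 0.5) in R 4.3.3, with TMM factors from edgeR 4.0.16, and scrublet ran in scanpy 1.11.5 under Python 3.11.15. Scrublet marked 14 cells of the library (0.232%), too few to be taken as working, so no doublets were removed from the main comparison. On simulated counts of 3983 genes, the direction was recovered for 100% of the 50 genes raised 1.25-fold and of the 50 raised 2-fold.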

Additional observations from a re-analysis of the deposited data

How the results depend on the processing

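No paired analysis was possible because both groups are cells of 1 sample. Against 4 genes 2-fold higher and 0 lower in cells with NANOG count 0, thinning with the groups formed again gave 2 (TFAP2A and ID2) and 1 lower (SPARC), with BMP4, at 1.45, no longer at 50 CPM, a pseudocount of 10 gave 2 higher, and a minimum of 150000 reads per cell gave 2 lower. A filter of 20 CPM gave 13 higher and 1 lower, one of 100 CPM 1 higher, and no filter 60 higher and 10 lower. A limit of 1.25-fold gave 22 and 28. A minimum of 50000 reads per cell gave 6 higher and leaving out cells marked by scrublet 5, while an upper group of at least 1 NANOG read gave 3 (TFAP2A, BMP4 and COL3A1, without ID2 and BAMBI). Groups by LIN28A reads (0 against at least 4), each of clusters 0 to 3 alone, and leaving out cells with TFAP2A reads or cluster 4, gave 0 higher, and cluster 2 gave 1 lower. The 1.25-fold limit and leaving out TFAP2A cells or a cluster were chosen after seeing the data. By LIN28A reads the ratios turned for TFAP2A (-0.90), BMP4 (-0.45), ID2 (-0.34), BAMBI (-0.14) and the amnion and trophoblast median (-0.04). Within cluster 0 they turned for TFAP2A (-0.17), BAMBI (-0.10), BMP4 (-0.05) and that median (-0.02), within cluster 1 for BAMBI (-0.33), and within cluster 3 for TFAP2A (-1.10), BAMBI (-0.37) and that median (-0.02). BAMBI also turned without TFAP2A cells (-0.14) and without cluster 4 (-0.13). Genes under 2-fold also changed sign, by LIN28A reads ETS2 (0.15), PDGFB (0.26), RGS16 (0.27), PHLDA2 (0.21), DUSP6 (0.24), PRDM14 (0.08), ID3 (-0.21) and PERP (-0.10) among others, and within cluster 0 RGS16 (0.27) and PHLDA2 (0.10). Over all settings SPARC ran from -4.56 to 2.10 and COL3A1 from -0.84 to 3.69. The share with NANOG count 0, 37.1%, was 43.4% at 50000 reads or more, 30.3% at 150000 or more, 45.3% thinned and 45.2% with no minimum. The causes were not tested. Depth limits each cell: a count of 0 does not show that NANOG was absent.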
